A study of Mus musculus with 9 samples.

Results

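Cells labelled for c-fos alone were compared with cells labelled for mCherry alone. The comparison takes the 3 libraries labelled c-fos and, as their reference, the 3 labelled mCherry, which makes 6 of the 9 mouse libraries of the series. The other 3, labelled overlap, entered the statistical fit. They took part in the filter on low counts, the scaling and the estimate of the spread between libraries. The genotype label reads c-fos or mCherry, and the labels give no strain, age, sex, treatment, viral vector or number of animals or cells per library. The design text speaks of cells labelled CRD, His or with both, without saying which of these is mCherry and which c-fos. Per the labels' protocols, fixed tissue was sampled by laser capture microdissection, in which a laser cuts chosen cells out of a section, and sequenced with Smart-3SEQ, which suits minute amounts of RNA and counts transcripts by the end next to the poly(A) tail. The cell type label and extraction text name spermatocytes and testis, whereas the basolateral amygdala is named in the series title.

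Fos encodes a transcription factor of the AP-1 family whose RNA and protein appear for a short time after a neuron has been active, so c-fos is widely used to mark recently activated cells. mCherry is a red fluorescent protein that marks the cells in which it has been made to appear. The basolateral amygdala consists mostly of glutamatergic projection neurons, which receive excitation through AMPA and NMDA receptors, with a smaller number of GABAergic interneurons, and borders on the striatum-like central amygdala.

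Total counts were 109091, 298802 and 304536 in c-fos libraries 1 to 3, against 259973, 429317 and 198865 in mCherry libraries 1 to 3. Levels are given as library-size-normalised counts (CPM) after TMM scaling, a correction for libraries in which a few genes take many of the counts, and 3 counts correspond to between 6.99 and 27.5 CPM of the total in these 6 libraries. The TMM factors were 1.13, 1.07 and 1.05 for c-fos and 1.01, 1.04 and 0.636 for mCherry, so mCherry 3 stood apart, and its values on total counts would be 0.636 times those printed here. In mCherry 3, 393 tested genes exceeded 200 CPM and 5 times the next of the other 5 libraries, and no other library of the 6 had such a gene. These genes took 24.3% of the counts of mCherry 3 and between 1.84% and 2.41% of the counts of each other library. At an equal depth of 90091 counts, 12787, 13206 and 12366 genes were detected in the c-fos libraries, against 11645, 12169 and 9295 in the mCherry libraries. The difference of 1750 genes had an exact permutation p of 0.1, two-sided, the smallest that 3 libraries against 3 allow, and the difference was 879 genes without mCherry 3. Of 30 spermatocyte and testis markers, 8 had no count in any of the 6 libraries, Sycp1, Spo11 and Stra8 among them, and the other 22 had a count in at least 1. The list summed to 446, 476 and 431 CPM in c-fos libraries, against 159, 298 and 1195 CPM in mCherry libraries, and 3 of its genes were abundant enough to be tested. Tnp1 supplied most of the sum in mCherry 3, with 103 counts there. Sox9, which is also on the astrocyte list, had 3, 35 and 45 counts in c-fos libraries and 7, 29 and 35 in mCherry libraries. Transcripts of neurons were abundant in all 6, as the values below show.

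No gene passed the test over all 7959 genes (edgeR quasi-likelihood test, Benjamini-Hochberg adjusted p under 0.05, 0.0% called), and what follows are differences in level, given with their errors. At an unadjusted p under 0.05, 263 genes were higher and 371 lower in c-fos libraries. With mCherry 3 left out, all 263 of the higher genes kept their direction and 158 of them kept an unadjusted p under 0.05. Of the 371 lower genes, 291 kept their direction and 85 kept an unadjusted p under 0.05, and 259 had more CPM in mCherry 3 than in the other 5 libraries together. The median log2 fold change over all tested genes was -0.01. Every c-fos library lay above every mCherry library for 719 genes (9.03%) and below for 547 genes (6.87%), and the counts of list members below are to be read against these shares. DESeq2 called 3 genes (0.0377%), namely Egr1, Hesx1 and Nipsnap3a. limma-voom called 4 (0.0503%), namely Celf4, Hesx1, Nptxr and Ptms. Hesx1 was thus called by both. Apart from Hesx1, every tested gene named here had an edgeR adjusted p of 0.465 or more. Fos itself, the gene that the label names, had 332, 265 and 281 CPM in c-fos libraries and 155.5, 53.8 and 47.5 CPM in mCherry libraries, without overlap. Egr1, another immediate early gene, had 324, 638 and 512 CPM in c-fos libraries, against 91.1, 78.5 and 87.0 CPM in mCherry libraries, again without overlap.

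**Figure D1:**
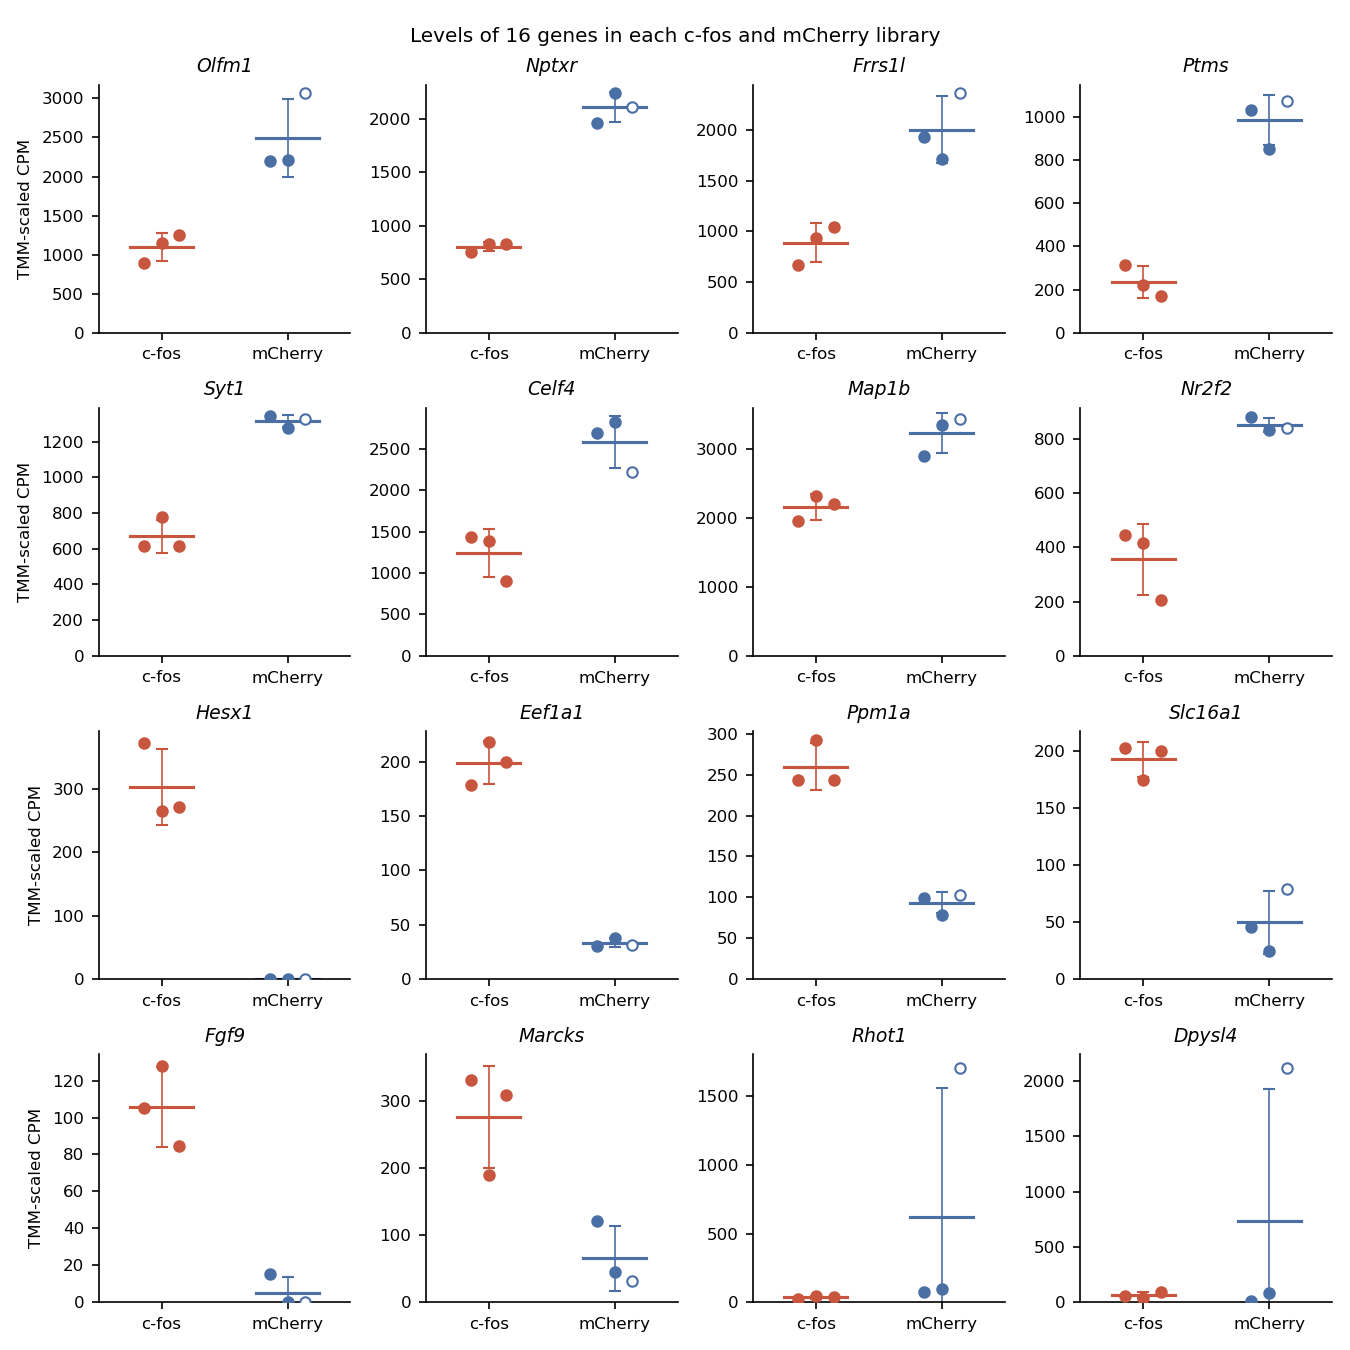
TMM-scaled CPM of 16 genes in each library, c-fos (red) left of mCherry (blue), with mCherry 3 as the open circle; horizontal bars are means and whiskers SD over 3 libraries. Groups do not overlap in 15 of the genes, Olfm1 to Rhot1, while in Rhot1 and Dpysl4 mCherry 3 stands far above the other 5 libraries.

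Several partners of the AMPA receptor had lower values in every c-fos library. AMPA receptors carry fast excitatory transmission, and several secreted or membrane proteins hold them at the synapse. Of 19 tested members, 12 had lower and 7 higher values in c-fos libraries. For 4 members (21.1%) every c-fos library lay below every mCherry library, for none above. Without mCherry 3 the first number was 10. It cannot be read against the shares of all genes above, since fewer libraries separate more easily. The median log2 fold change of the list was -0.52, and -0.67 without mCherry 3.

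Olfm1 (ENSMUSG00000026833), which encodes noelin, a secreted olfactomedin protein that binds AMPA receptor complexes, had 892, 1149 and 1247 CPM in c-fos libraries, against 2197, 2214 and 3070 CPM in mCherry libraries. The lowest mCherry library was well above the highest c-fos library. The fitted level was 2.27-fold lower in c-fos, a log2 fold change of -1.18 ± 0.28 (SE; edgeR adjusted p = 0.568), and -1.02 without mCherry 3. Nptxr (ENSMUSG00000022421) encodes the neuronal pentraxin receptor, a membrane protein that takes part in AMPA receptor clustering. It had 754, 828 and 831 CPM in c-fos libraries and 1965, 2245 and 2112 CPM in mCherry libraries. With TMM scaling both groups were tight and far apart. On total counts the mCherry libraries had 1993, 2332 and 1343 CPM, still above all c-fos libraries. The 2.62-fold lower level of Nptxr (log2 fold change -1.39 ± 0.34, SE) was the same without mCherry 3 to the first decimal (-1.40). It passed the threshold with limma-voom (adjusted p = 0.0186) and not with edgeR (adjusted p = 0.568). The annotation places Npcd on the same strand, so its reads cannot be told from those of Nptxr. Frrs1l (ENSMUSG00000045589), which encodes an endoplasmic reticulum protein needed for the assembly of AMPA receptors, had 673, 937 and 1047 CPM in c-fos libraries, against 1927, 1716 and 2365 CPM in mCherry libraries. Again no libraries overlapped, and the log2 fold change was -1.17 ± 0.31 (SE), or -1.05 without mCherry 3.

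The receptor subunit itself differed less. Gria2, the subunit that keeps most AMPA receptors impermeable to calcium, had 2262, 2413 and 2703 CPM in c-fos libraries and 4518, 3248 and 2611 CPM in mCherry libraries. The groups overlapped because mCherry 3 was lower than c-fos 3, and the log2 fold change was -0.49 ± 0.25 (SE), or -0.67 without mCherry 3. Grin1, the obligatory subunit of NMDA receptors, had 73.0, 296 and 347 CPM in c-fos libraries, against 535, 733 and 775 CPM in mCherry libraries. All c-fos libraries were lower, with c-fos 1 lowest, at a log2 fold change of -1.50 ± 0.53 (SE). Of the 13 tested NMDA, kainate and metabotropic receptor genes, 7 were lower and 6 higher, with a median of -0.19. For 23 genes of the postsynaptic density the median was -0.09, with 12 lower and 11 higher. Its scaffold gene Dlg4, which encodes PSD-95, had 965, 1507 and 1319 CPM in c-fos libraries and 1650, 1593 and 1891 CPM in mCherry libraries, a log2 fold change of -0.44 ± 0.33 (SE). The c-fos libraries were the lower ones, but c-fos 2 came close to mCherry 2.

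The genes of synaptic vesicle release had the lowest median of the lists with at least 10 tested members when all libraries were used, whereas without mCherry 3 the AMPA receptor list was lower, and on the scale of the 200 most abundant genes oxidative phosphorylation was. Of 31 tested members, 24 were lower and 7 higher, with a median log2 fold change of -0.58 and of -0.60 without mCherry 3. In 10 of them (32.3%) every c-fos library lay below every mCherry library, in none above. Syt1 encodes the calcium sensor of fast transmitter release. It had 616, 775 and 616 CPM in c-fos libraries, against 1343, 1279 and 1329 CPM in mCherry libraries. With TMM scaling the mCherry libraries lay within a narrow band above all c-fos libraries. On total counts mCherry 3 came to 845 CPM, close to the 833 CPM of c-fos 2. The log2 fold change was -0.98 ± 0.34 (SE) with and -0.98 without mCherry 3. Cplx2, a complexin that clamps and assists the fusion machinery, had 89.2, 87.2 and 28.1 CPM in c-fos libraries and 429, 209 and 261 CPM in mCherry libraries, without overlap (log2 fold change -2.14 ± 0.82, SE). Dnm1, the dynamin that pinches off vesicles after release, had 89.2, 454.5 and 422 CPM in c-fos libraries, against 668, 467 and 498 CPM in mCherry libraries. Here c-fos 2 lay just below mCherry 2, and c-fos 1 accounts for most of the distance, with a log2 fold change of -0.75 ± 0.55 (SE). Syt7, a slower calcium sensor of the same family as Syt1, had 535, 953 and 997 CPM in c-fos libraries and 618, 684 and 633 CPM in mCherry libraries. These groups overlapped, and the log2 fold change was 0.36 ± 0.39 (SE).

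Adhesion and guidance molecules gave a mixed picture. Nlgn1, a postsynaptic neuroligin, had 170, 131 and 103 CPM in c-fos libraries, against 144, 146 and 1195 CPM in mCherry libraries. Its log2 fold change of -1.87 ± 0.78 (SE) rested on mCherry 3 and was -0.13 without it. Among 34 tested axon guidance genes, 22 were lower and 12 higher, with 5 above and 5 below without overlap (14.7% each). Epha5, an ephrin receptor, had 689, 859 and 916 CPM in c-fos libraries and 1631, 1714 and 1551 CPM in mCherry libraries. Its relative Epha3 ran the other way, with 73.0, 121 and 131 CPM in c-fos libraries, against 7.59, 35.9 and 7.91 CPM in mCherry libraries. Neither receptor's groups overlapped, at log2 fold changes of -0.99 ± 0.39 (SE) for Epha5 and 2.53 ± 0.88 (SE) for Epha3. Sema4a, a semaphorin, had no count in any c-fos library and 60.7, 85.2 and 55.4 CPM in mCherry libraries. Taking 3 counts in the whole c-fos group as the floor, it was at least 18.6-fold lower in c-fos, and at least 19.4-fold lower without mCherry 3.

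Calcium signalling and granule proteins were also examined. Of 24 tested calmodulin and calcium signalling genes, 16 were lower and 8 higher, with a median of -0.43 (4 below and 2 above without overlap). Vsnl1, which encodes the calcium sensor VILIP-1, had 8.11, 109 and 253 CPM in c-fos libraries, against 379, 516 and 498 CPM in mCherry libraries. It was lower in every c-fos library, which differed widely among themselves. The log2 fold change was -1.88 ± 0.74 (SE). Nrgn, neurogranin, which binds calmodulin in dendrites, had 486, 623 and 619 CPM in c-fos libraries and 846, 1039 and 720 CPM in mCherry libraries (log2 fold change -0.59 ± 0.41, SE), without overlap. Atp2b1, a calcium pump of the plasma membrane, had 1354, 1501 and 1700 CPM in c-fos libraries, against 2546, 1873 and 2002 CPM in mCherry libraries (log2 fold change -0.49 ± 0.26, SE). Granins and chaperones of the secretory granule differed in direction. Scg2, secretogranin II, had 235, 227 and 700 CPM in c-fos libraries and 64.5, 31.4 and 198 CPM in mCherry libraries. Scg5, which encodes the chaperone 7B2, had 0, 0 and 9.37 CPM in c-fos libraries, against 102, 49.3 and 253 CPM in mCherry libraries. In both genes the groups did not overlap, Scg2 with c-fos above (log2 fold change 2.03 ± 0.91, SE; 3.03 without mCherry 3) and Scg5 with c-fos below.

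The cytoskeleton of axons and dendrites followed the pattern of the synapse genes in most of its members. Of 28 tested tubulins, microtubule proteins and neurofilaments, 19 were lower and 9 higher, with a median of -0.50, and 8 (28.6%) lay below without overlap and 1 above. Map1b, a large microtubule-associated protein of growing axons, had 1954, 2329 and 2209 CPM in c-fos libraries and 2906, 3356 and 3449 CPM in mCherry libraries. Map1a, its relative in mature dendrites, had 1054, 707 and 641 CPM in c-fos libraries, against 1904, 1395 and 1313 CPM in mCherry libraries. In neither gene did a c-fos library reach the lowest mCherry library, at log2 fold changes of -0.58 ± 0.23 (SE) for Map1b and -0.94 ± 0.34 (SE) for Map1a. Tuba4a, an alpha-tubulin, had 73.0, 90.3 and 150 CPM in c-fos libraries and 395, 258 and 356 CPM in mCherry libraries (log2 fold change -1.67 ± 0.66, SE). Mapt, tau, had 762, 1594 and 1134 CPM in c-fos libraries, against 1711, 1653 and 1740 CPM in mCherry libraries, where c-fos 2 came close to the mCherry values. The exception without overlap was Dclk1, a doublecortin-like kinase that binds microtubules, with 1127, 1367 and 1747 CPM in c-fos libraries and 1043, 776 and 791 CPM in mCherry libraries (log2 fold change 0.70 ± 0.30, SE). Kinesins and dyneins, the motors that run on microtubules, were lower in 22 of 31 tested members (median -0.32).

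Among actin regulators, whose 24 tested members had a median of -0.07, 3 were above and 3 below without overlap. Marcks, a protein kinase C substrate that binds actin and calmodulin at the membrane, had 332, 190 and 309 CPM in c-fos libraries, against 121, 44.9 and 31.6 CPM in mCherry libraries. Arpc3, a subunit of the Arp2/3 complex that branches actin filaments, had 56.7, 224 and 212 CPM in c-fos libraries and 34.1, 20.2 and 7.91 CPM in mCherry libraries. Both genes were higher in every c-fos library, with log2 fold changes of 2.04 ± 0.73 (SE) for Marcks and 2.91 ± 0.85 (SE) for Arpc3, and of 1.74 and 2.61 without mCherry 3.

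In energy metabolism, 25 of 33 tested nuclear genes of oxidative phosphorylation were lower and 8 higher (median -0.53, and -0.57 without mCherry 3), and 7 (21.2%) lay below without overlap, none above. Ndufb2, a subunit of complex I, had 308, 268 and 325 CPM in c-fos libraries, against 679, 787 and 554 CPM in mCherry libraries. The log2 fold change was -1.17 ± 0.45 (SE). On total counts mCherry 3 came to 352 CPM, close to the 348 CPM of c-fos 1. Sdhc, a membrane anchor of complex II, had 0, 12.5 and 28.1 CPM in c-fos libraries and 94.8, 38.1 and 237 CPM in mCherry libraries (log2 fold change -3.01 ± 1.29, SE; -2.16 without mCherry 3). Gapdh, of glycolysis, had 365, 576 and 372 CPM in c-fos libraries, against 759, 583 and 1282 CPM in mCherry libraries. The gap between c-fos 2 and mCherry 2 was small, and the log2 fold change of -0.99 ± 0.41 (SE) was -0.62 without mCherry 3. The 12 glycolytic enzymes as a list had a median of -0.13, and of 0.05 without mCherry 3. Slc16a1, which encodes the lactate and monocarboxylate transporter MCT1, was higher in c-fos libraries, at 203, 174 and 200 CPM, against 45.5, 24.7 and 79.1 CPM in mCherry libraries. These groups were well apart (log2 fold change 1.98 ± 0.76, SE).

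Translation genes were mixed. Of 48 tested cytosolic ribosomal protein genes, 29 were higher and 19 lower, with a median of 0.40 (0.46 without mCherry 3). In 5 (10.4%) all c-fos libraries lay above, a share near that of all genes, and in none below. Rps2, of the small subunit, had 73.0, 149 and 46.9 CPM in c-fos libraries and 26.6, 24.7 and 0 CPM in mCherry libraries (log2 fold change 2.25 ± 0.95, SE). Ribosomal protein genes have many processed copies in the genome, and counting could have split their reads. Of 27 tested initiation and elongation factors, 16 were lower and 11 higher, with a median of -0.15 (-0.27 without mCherry 3), and 3 lay below and 1 above without overlap. Eef1a1, the factor that brings aminoacyl-tRNA to the ribosome and another gene with many such copies, had 178, 218 and 200 CPM in c-fos libraries, against 30.4, 38.1 and 31.6 CPM in mCherry libraries. The 3 values of each group lay close together, and the level was 5.86-fold higher in c-fos (log2 fold change 2.55 ± 0.99, SE; 2.50 without mCherry 3). Eif3a, the largest subunit of an initiation factor, had 56.7, 109 and 84.4 CPM in c-fos libraries and 288, 401 and 237 CPM in mCherry libraries, lower without overlap (log2 fold change -1.87 ± 0.76, SE).

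Nuclear and RNA-binding proteins held 2 of the genes that limma-voom called. Ptms (ENSMUSG00000030122), which encodes parathymosin, a small acidic nuclear protein, had 316, 221 and 172 CPM in c-fos libraries, against 1032, 855 and 1076 CPM in mCherry libraries. All c-fos libraries were far below all mCherry libraries, and the level was 4.19-fold lower (log2 fold change -2.07 ± 0.42, SE; -2.02 without mCherry 3), with an adjusted p of 0.0186 by limma-voom and 0.465 by edgeR. Celf4, a neuronal RNA-binding protein that regulates splicing and stability of synaptic transcripts, had 1435, 1382 and 906 CPM in c-fos libraries and 2686, 2826 and 2223 CPM in mCherry libraries. The log2 fold change was -1.06 ± 0.30 (SE; adjusted p = 0.0186 by limma-voom), and -1.17 without mCherry 3. Zmat2, a zinc finger protein of the spliceosome, had 486, 685 and 1078 CPM in c-fos libraries, against 1631, 1507 and 2278 CPM in mCherry libraries (log2 fold change -1.26 ± 0.35, SE). As a list, 85 splicing and RNA-binding genes had a median of -0.12, with 47 lower and 38 higher. Malat1, a long noncoding RNA of nuclear speckles and among the most abundant transcripts here, had 4321, 4947 and 5684 CPM in c-fos libraries and 7789, 6135 and 6369 CPM in mCherry libraries, a log2 fold change of -0.44 ± 0.17 (SE). Its groups did not overlap with TMM scaling, but on total counts mCherry 3 came to 4048 CPM, below all c-fos libraries.

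Phosphatase and trafficking genes completed the lower and higher sets. Ppm1a, a magnesium-dependent phosphatase, had 243, 293 and 244 CPM in c-fos libraries, against 98.6, 78.5 and 103 CPM in mCherry libraries. Ppp6r2, a regulatory subunit of phosphatase 6, had 97.3, 68.5 and 172 CPM in c-fos libraries and 523.5, 262 and 491 CPM in mCherry libraries. Both were without overlap and of opposite sign, with log2 fold changes of 1.48 ± 0.60 (SE) for Ppm1a and -1.91 ± 0.68 (SE) for Ppp6r2, inside a list of 36 tested phosphatase genes with a median of 0.13. Rabgap1, a GTPase-activating protein for Rab proteins, had 211, 289.5 and 228 CPM in c-fos libraries, against 702, 794 and 1321 CPM in mCherry libraries (log2 fold change -1.94 ± 0.53, SE). Nipsnap3a, of the NIPSNAP family of mitochondrial proteins, had no count in c-fos libraries and 26.6, 80.7 and 498 CPM in mCherry libraries. It was at least 32.3-fold lower in c-fos, or at least 15.4-fold lower without mCherry 3, and DESeq2 called it (adjusted p = 0.0136). Overlap libraries took part in its being tested.

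Hesx1 (ENSMUSG00000040726) had the smallest p of all genes. It encodes a paired-like homeodomain repressor known for its role in forebrain and pituitary development. It had 373, 265 and 272 CPM in c-fos libraries, or 218 counts in all, and no count in any mCherry library. All 3 c-fos libraries were thus far above the floor, and the level was at least 79.4-fold higher in c-fos, taken against 3 counts in the whole mCherry group. The adjusted p was 0.0692 by edgeR, 0.0186 by limma-voom and 9.92e-06 by DESeq2, and 0.0213 by edgeR without mCherry 3. Of the 41 tested homeobox and forkhead genes, 27 were higher and 14 lower, with a median log2 fold change of 0.56 (0.44 without mCherry 3). In 8 of them (19.5%) all c-fos libraries lay above, in none below. Pou1f1, a POU factor of pituitary cells, had 40.5, 3.11 and 59.4 CPM in c-fos libraries and no count in mCherry libraries. Its value in c-fos 2 was below the floor of 3 counts.

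Several other genes high in c-fos libraries had no count in mCherry libraries. Tnfsf13b, which encodes the B cell activating factor BAFF, had 64.9, 62.3 and 34.4 CPM in c-fos libraries. Rpa2, a subunit of the single-stranded DNA binding protein RPA, had 97.3, 56.0 and 56.2 CPM in them. Rgs12, a regulator of G protein signalling, had 32.4, 52.9 and 28.1 CPM in them. All 3 genes had a count in each c-fos library, and the fold over the floor was at least 14.2 for Tnfsf13b, 17.5 for Rpa2 and 10.9 for Rgs12. F2, which encodes prothrombin, had 56.7, 15.6 and 75.0 CPM in c-fos libraries, and Frk, a Src-related kinase, had 40.5, 18.7 and 46.9 CPM. Olfr23, an olfactory receptor gene, had 8.11, 31.1 and 62.5 CPM. These were at least 13.1-fold (F2), 9.47-fold (Frk) and 11.3-fold (Olfr23) higher in c-fos. Olfr23 was the least even of them, and its value in c-fos 1 was below the floor of 3 counts. Ccnt2, a cyclin of the elongation factor P-TEFb, had 97.3, 128 and 68.7 CPM in c-fos libraries and 0, 4.49 and 0 CPM in mCherry libraries. Fam184b had 64.9, 34.2 and 87.5 CPM in c-fos libraries, against 3.79, 6.73 and 0 CPM in mCherry libraries. In both genes the mCherry values came from at most 3 counts per library. Tnfsf13b, Rgs12, F2, Frk, Olfr23 and Fam184b would not have passed the filter on low counts through the c-fos and mCherry libraries alone. Overlap libraries took part in their being tested, and their values there are not given here. limma-voom called none of the genes of this paragraph, and DESeq2 none of those for which it gave an adjusted p.

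The windows around the transcription start of 4 of these genes are printed because they include the gene called by both other tools and those with TGANTCA. This pattern is looser than the AP-1 motif, whose middle base is C or G and which the protein named in the label binds. They are RefSeq windows on build GRCm38.p6, from 250 bases before to 50 after the start, 5′ to 3′ on the gene's strand, with the motif TGANTCA in capitals.
Hesx1, chr14:27000112-27000411 (+ strand): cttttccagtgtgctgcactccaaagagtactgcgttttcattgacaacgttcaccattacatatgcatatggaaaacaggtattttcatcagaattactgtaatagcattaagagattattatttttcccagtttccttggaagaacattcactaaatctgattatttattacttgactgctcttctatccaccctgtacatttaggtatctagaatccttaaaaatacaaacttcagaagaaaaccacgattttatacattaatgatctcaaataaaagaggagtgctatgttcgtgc
Tnfsf13b, chr8:10006383-10006682 (+ strand): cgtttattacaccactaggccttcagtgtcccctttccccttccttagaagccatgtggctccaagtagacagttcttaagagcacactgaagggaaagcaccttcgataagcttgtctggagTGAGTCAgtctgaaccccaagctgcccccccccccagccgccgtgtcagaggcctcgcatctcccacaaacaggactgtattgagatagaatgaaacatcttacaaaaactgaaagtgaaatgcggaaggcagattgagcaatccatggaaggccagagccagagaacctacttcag
F2, chr2:91636408-91636707 (- strand): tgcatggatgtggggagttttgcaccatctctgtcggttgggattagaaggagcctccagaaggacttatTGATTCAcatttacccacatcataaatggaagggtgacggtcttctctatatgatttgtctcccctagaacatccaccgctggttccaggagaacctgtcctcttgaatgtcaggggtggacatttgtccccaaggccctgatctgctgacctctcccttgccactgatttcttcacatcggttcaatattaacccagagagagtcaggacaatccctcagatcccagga
Rgs12, chr5:34998828-34999127 (+ strand): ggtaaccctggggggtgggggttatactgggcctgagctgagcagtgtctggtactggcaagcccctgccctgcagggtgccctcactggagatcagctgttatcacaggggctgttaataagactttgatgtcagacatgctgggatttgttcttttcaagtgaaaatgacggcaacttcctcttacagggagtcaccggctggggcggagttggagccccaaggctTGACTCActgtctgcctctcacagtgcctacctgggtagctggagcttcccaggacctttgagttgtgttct
Over all 27025 genes with a window, 8.97% held TGANTCA, which reads the same on the other strand, N being any base. Of the 12 higher genes chosen by the naming rule, 3 held it, namely Tnfsf13b with its first base 127 bases before the start printed, F2 at 180 bases before and Rgs12 at 22 bases before. At another annotated start of Rgs12, not printed, the window held no match. Of the 10 lower genes of that rule with a window, 1 held it, namely Plscr5, whose window is not printed. The matches of F2 and Plscr5 read TGATTCA, which is outside the stricter AP-1 motif. The motif TGACGTCA, bound by CREB, was in 2.03% of all genes and in none of these. These are matches of letters and describe the windows only.

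Growth factor genes were higher in c-fos libraries in several instances. Of 10 tested FGF signalling genes, 7 were higher and 3 lower (median 0.37, and 0.45 without mCherry 3), and 3 of the 10 lay above without overlap, none below. Fgf9, a fibroblast growth factor made by neurons, had 105, 128 and 84.4 CPM in c-fos libraries, against 15.2, 0 and 0 CPM in mCherry libraries. Flrt3, a membrane protein that binds FGF receptors and latrophilins, had 154, 137 and 68.7 CPM in c-fos libraries and 0, 26.9 and 15.8 CPM in mCherry libraries. Both genes were separated by wide gaps, at log2 fold changes of 4.22 ± 1.27 (SE) for Fgf9 and 2.98 ± 1.05 (SE) for Flrt3. Fgf2, named in the series title, had 5, 6 and 22 counts in c-fos libraries and 0 in each mCherry library, too few to be tested. Its level was at least 12-fold higher in c-fos, and the annotation places Fgf2os and Nudt6 on the opposite strand of the same region. Notch2, the other gene of the title, had 0, 1 and 0 counts in c-fos libraries and 24, 0 and 33 counts in mCherry libraries. It was not tested either, and 1 mCherry library had no count. Wnt3, a secreted Wnt ligand, had 56.7, 40.5 and 46.9 CPM in c-fos libraries and no count in mCherry libraries, at least 12.8-fold higher in c-fos. The 16 tested Wnt signalling genes as a list leaned lower, with 13 of them negative (median -0.32). Without mCherry 3, 10 were negative and 6 positive (median -0.27), and on the scale of the 200 most abundant genes the median was 0.04.

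Imprinted protein-coding genes, which are expressed from a single parental allele, were higher in 14 of 18 tested members and lower in 4, with a median of 0.53 (0.28 without mCherry 3). In 4 (22.2%) all c-fos libraries lay above, in none below. Plagl1, a zinc finger factor that regulates other imprinted genes, had 81.1, 271 and 306 CPM in c-fos libraries, against 37.9, 11.2 and 39.6 CPM in mCherry libraries. Its log2 fold change was 2.93 ± 0.86 (SE), and 3.19 without mCherry 3. Asb4, an adaptor of a ubiquitin ligase expressed in hypothalamus, had 64.9, 43.6 and 18.7 CPM in c-fos libraries and 3.79, 4.49 and 0 CPM in mCherry libraries. Nnat, neuronatin, the most abundant of those named, had 3794, 2245 and 3225 CPM in c-fos libraries, against 2978, 1092 and 1796 CPM in mCherry libraries. Its groups overlapped through c-fos 2 and mCherry 1.

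**Figure D2:**
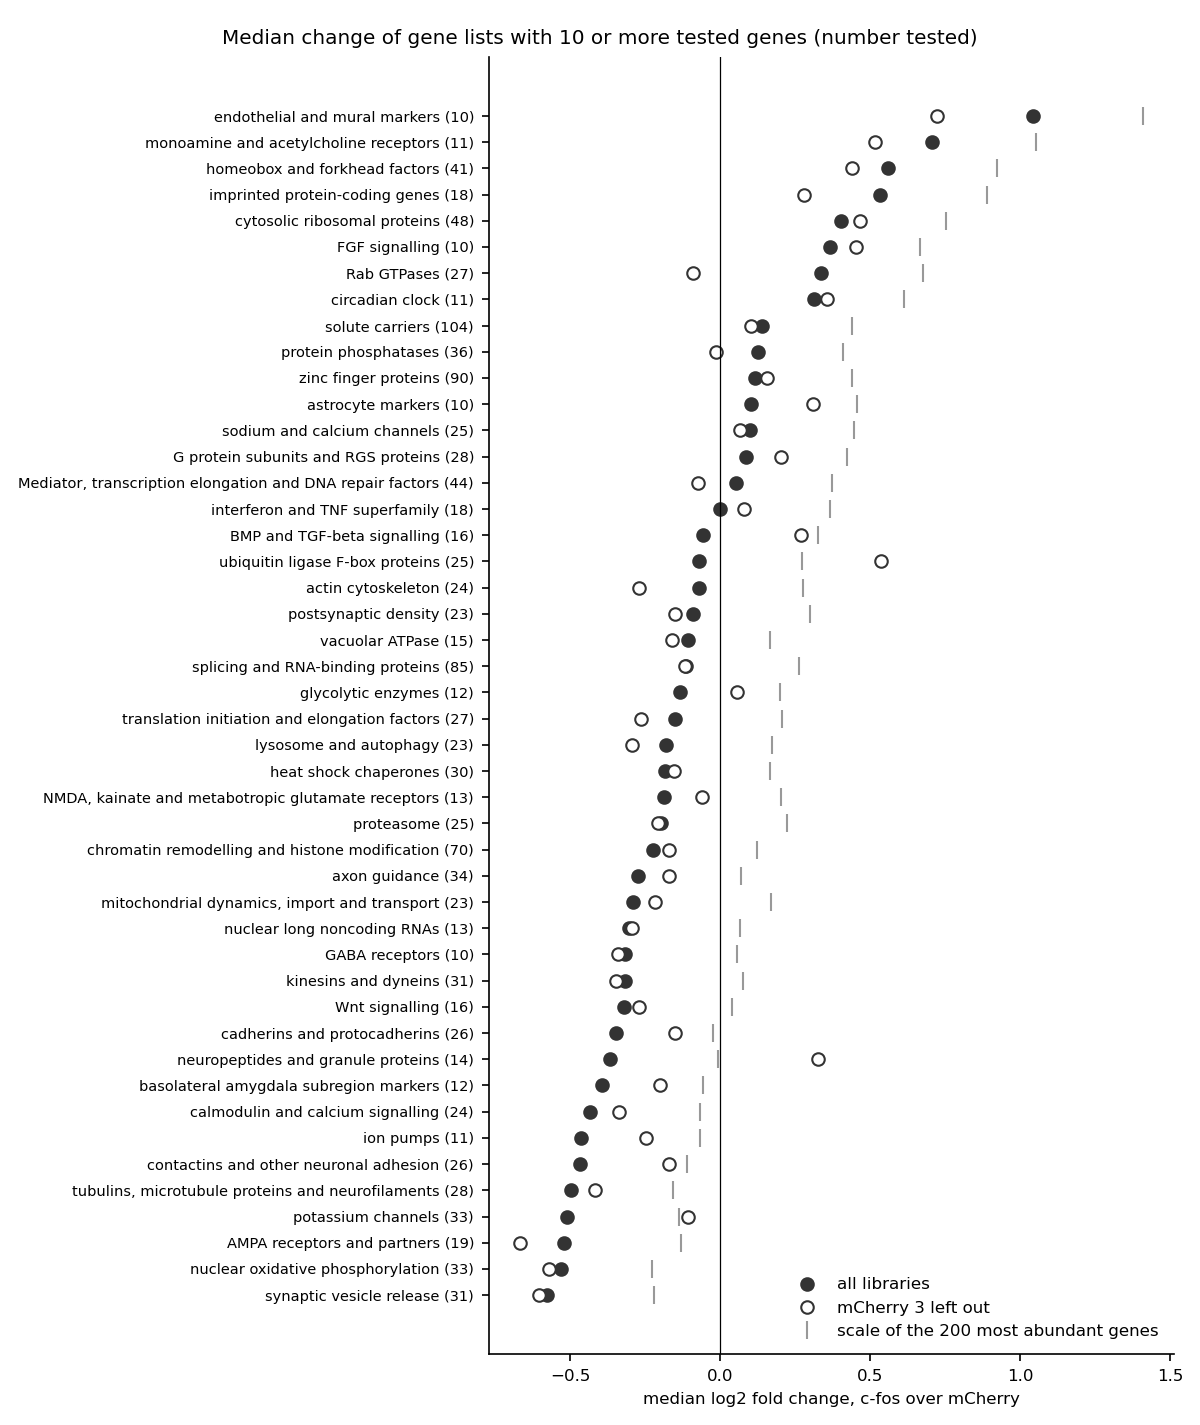
Median log2 fold change, c-fos over mCherry, of each gene list with 10 or more tested genes (number tested in parentheses), with all libraries (filled), with mCherry 3 left out (open) and with scaling on the 200 most abundant genes (tick). All 3 values lie left of 0 for synaptic vesicle release, oxidative phosphorylation, AMPA receptors and tubulins and right of it for homeobox, imprinted and ribosomal genes, and each tick lies right of its filled point.

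The direction of a list depended on the scale. The 200 most abundant tested genes were lower in c-fos in 171 cases, with a median log2 fold change of -0.38, and setting the scale on them moved the fold changes up by a median of 0.34. Of 52 lists with at least 5 tested genes, 35 had a negative median, 32 without mCherry 3, and 14 on the scale of the abundant genes. On that scale the medians were -0.22 for synaptic vesicle release, -0.23 for oxidative phosphorylation, -0.16 for the tubulin list, -0.13 for the AMPA receptor list and -0.07 for calcium signalling. They were 0.07 for kinesins and dyneins and 0.20 for NMDA, kainate and metabotropic receptors, a change of sign. The leading lower genes had changes larger than the shift of 0.34, so their sign could hardly turn. On that scale they had -0.84 for Olfm1, -1.04 for Nptxr, -0.83 for Frrs1l, -1.68 for Ptms and -0.62 for Syt1.

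**Figure D3:**
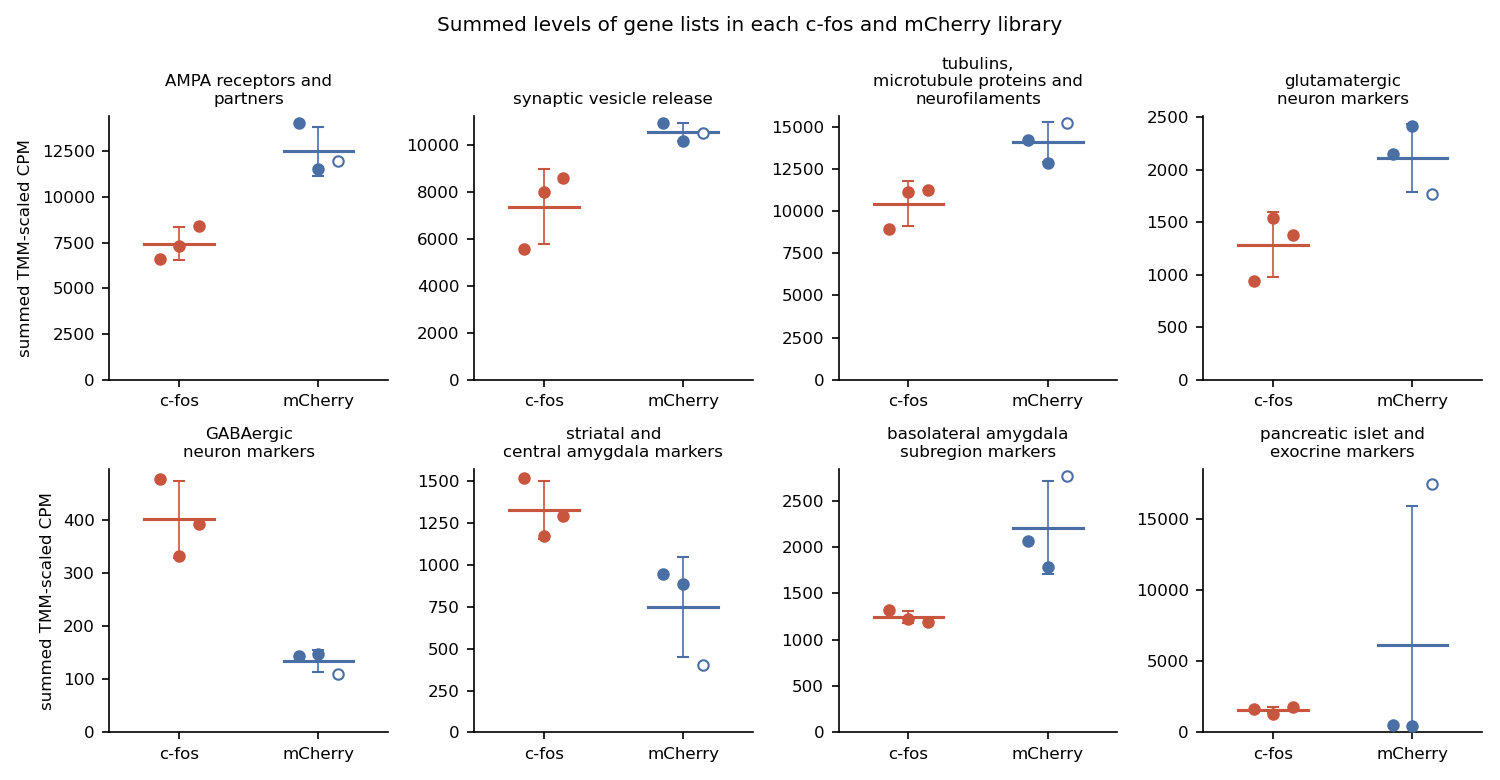
Summed TMM-scaled CPM of 8 gene lists in each library, c-fos (red) left of mCherry (blue), with mCherry 3 as the open circle; bars are means and whiskers SD over 3 libraries. AMPA receptor sums run from 6616 to 8400 in c-fos and from 11538 to 14029 in mCherry libraries, and pancreatic sums reach 17428 in mCherry 3.

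Summed levels showed the same dependence. The AMPA receptor list summed to 6616, 7304 and 8400 CPM in c-fos libraries, against 14029, 11538 and 11938 CPM in mCherry libraries. On total counts without TMM scaling, mCherry 3 came to 7588 CPM and fell among the c-fos values of 7480, 7851 and 8827 CPM, while mCherry 1 and 2 stayed above at 14225 and 11982 CPM. The sums of the synaptic vesicle, oxidative phosphorylation and tubulin lists likewise lay below in c-fos with TMM scaling and overlapped on total counts. Of 71 genes named here whose groups did not overlap with TMM scaling, 11 overlapped on total counts, namely Celf4, Gapdh, Atp2b1, Nrgn, Dnm1, Dlg4, Map1b, Mapt, Map1a, Malat1 and Slc17a7.

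Markers of cell types differed in part as well. In captured material of several cells, fewer cells of a type and less RNA per cell cannot be told apart. Of 8 tested glutamatergic neuron markers, 3 were higher and 5 lower (median -0.49), and 3 (37.5%) lay below without overlap. Neurod6, a bHLH factor of pyramidal neurons, had 56.7, 125 and 119 CPM in c-fos libraries, against 300, 377 and 332 CPM in mCherry libraries (log2 fold change -1.73 ± 0.68, SE; -1.75 without mCherry 3). Slc17a7, which encodes the vesicular glutamate transporter VGLUT1, had 64.9, 125 and 169 CPM in c-fos libraries and 292, 498 and 182 CPM in mCherry libraries. Both were lower in every c-fos library, but Slc17a7 only narrowly against mCherry 3. The 14 GABAergic markers summed to 478, 333 and 394 CPM in c-fos libraries, against 144, 148 and 111 CPM in mCherry libraries, without overlap on either scale. Only 2 of them were abundant enough to be tested, and 3 had no count in the 6 libraries. Slc32a1, the vesicular GABA transporter, had 243, 80.9 and 93.7 CPM in c-fos libraries and 41.7, 8.97 and 0 CPM in mCherry libraries (log2 fold change 2.92 ± 1.48, SE). It supplied a large part of the sum in c-fos 1. Other members differed in direction. Dlx1 had 9, 6 and 10 counts in c-fos libraries and 0, 1 and 0 in mCherry libraries. Dlx6 had 0, 0 and 0 counts against 10, 3 and 7, and Gad1 had 3, 1 and 7 against 0, 8 and 0.

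Regional markers pointed in differing directions. The 16 striatal and central amygdala markers summed to 1516, 1174 and 1294 CPM in c-fos libraries and 948, 886 and 404 CPM in mCherry libraries, without overlap on either scale. Of 7 tested members, 5 were higher and 2 lower, with 3 above and 1 below without overlap. The dopamine receptor genes had few counts. Drd1 had 1, 8 and 1 in c-fos libraries against 6, 3 and 0 in mCherry libraries, and Drd2 had 12, 18 and 0 against 3, 0 and 0. Foxp2, a forkhead factor of striatal and intercalated amygdala neurons, had 259, 131 and 184 CPM in c-fos libraries, against 60.7, 71.8 and 31.6 CPM in mCherry libraries. Meis2 had 203, 221 and 112 CPM in c-fos libraries and 102, 103 and 0 CPM in mCherry libraries, and Bcl11b had 138, 193 and 181 CPM against 102, 117 and 23.7 CPM. Meis2 and Bcl11b encode transcription factors of striatal neurons, and their log2 fold changes were 1.33 ± 1.01 (SE) for Meis2 and 1.05 ± 0.80 (SE) for Bcl11b. Foxp1, a relative of Foxp2, overlapped between the groups (559, 277 and 609 CPM in c-fos libraries, against 319, 285 and 182 CPM in mCherry libraries). Isl1, a LIM homeodomain factor of the same list, had 0, 0 and 3.12 CPM in c-fos libraries and 22.8, 42.6 and 23.7 CPM in mCherry libraries, the opposite direction. The 18 basolateral amygdala subregion markers summed to 1321, 1223 and 1191 CPM in c-fos libraries, against 2068, 1788 and 2761 CPM in mCherry libraries, without overlap on either scale. Part of the sum in mCherry 3 came from Cdh13, with 87 counts there, against 11 and 5 in mCherry 1 and 2. Of 12 tested members of the list, 8 were lower and 4 higher. Only 1 lay below and 1 above without overlap (8.33% each), near the shares of all genes. Nr2f2, a nuclear receptor also known as COUP-TFII and an abundant member of that list, had 446, 414 and 206 CPM in c-fos libraries and 880, 832 and 839 CPM in mCherry libraries, at a log2 fold change of -1.26 ± 0.45 (SE). Rorb, another member, had 16.2, 37.4 and 25 CPM in c-fos libraries, against 7.59, 4.49 and 0 CPM in mCherry libraries, and its relative Rora, also of the circadian clock list, had 186, 121 and 71.9 CPM in c-fos libraries and 30.4, 35.9 and 0 CPM in mCherry libraries. Both nuclear receptors were higher in every c-fos library. The part of differing cell types or regions in the synapse, cytoskeleton and energy values above was not tested.

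Among non-neuronal markers, the 10 tested endothelial and mural genes were higher in 8 cases and lower in 2 (median 1.04, and 0.72 without mCherry 3). Col1a2, a collagen gene of fibroblasts and mural cells, had 64.9, 131 and 62.5 CPM in c-fos libraries, against 0, 11.2 and 15.8 CPM in mCherry libraries. The summed list overlapped, at 608, 940 and 1116 CPM in c-fos libraries and 584, 781 and 514 CPM in mCherry libraries. Astrocyte and microglia sums overlapped too.

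**Figure D4:**
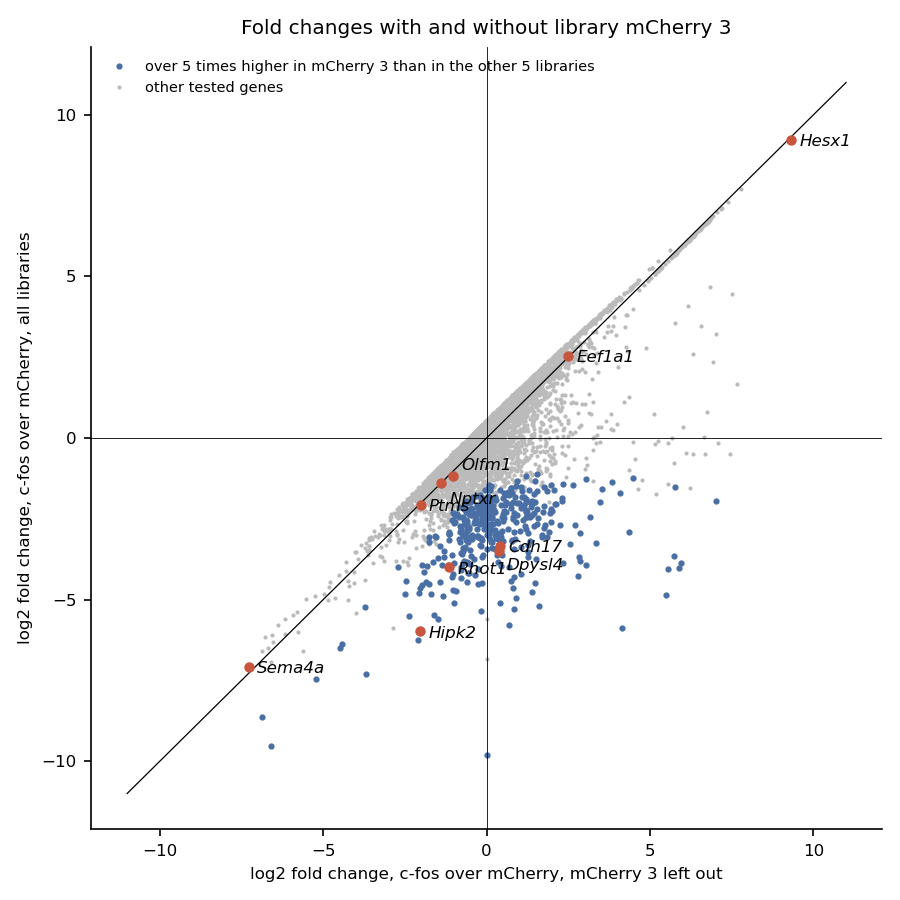
Log2 fold change, c-fos over mCherry, of each of the 7959 tested genes with all libraries (vertical axis) against that with mCherry 3 left out (horizontal axis); blue points are the 393 genes over 5 times higher in mCherry 3 than in the other 5 libraries, and red points are named. Olfm1, Nptxr, Ptms, Sema4a, Hesx1 and Eef1a1 lie near the diagonal, whereas Hipk2 and Rhot1 lie far below it and Dpysl4 and Cdh17 change sign.

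Some of the lowest fold changes were carried by mCherry 3 alone. The 393 genes described above had a median log2 fold change of -2.66 with all libraries and of 0.08 with mCherry 3 left out. Rhot1, which encodes the mitochondrial GTPase Miro1, had 24.3, 46.7 and 40.6 CPM in c-fos libraries, against 72.1, 94.2 and 1701 CPM in mCherry libraries. Hipk2, a nuclear kinase, had 24.3, 6.23 and 0 CPM in c-fos libraries and 30.4, 42.6 and 1566 CPM in mCherry libraries. In both genes mCherry 1 and 2 lay above the c-fos libraries but far below mCherry 3, and without mCherry 3 the log2 fold change was -1.14 in place of -4.0 for Rhot1 and -2.03 in place of -5.98 for Hipk2. Fbxw28, an F-box protein, had 0, 15.6 and 12.5 CPM in c-fos libraries, against 56.9, 51.6 and 1424 CPM in mCherry libraries. Plscr5, a scramblase family member, had 0, 6.23 and 0 CPM in c-fos libraries and 56.9, 69.5 and 696 CPM in mCherry libraries. These 2 were also lower in each c-fos library than in mCherry 1 and 2, at log2 fold changes of -2.38 for Fbxw28 and -4.47 for Plscr5 without mCherry 3. Smad6, an inhibitor of BMP signalling, had 8.11, 31.1 and 34.4 CPM in c-fos libraries and 19.0, 44.9 and 1440 CPM in mCherry libraries. The groups overlapped, and the log2 fold change was -0.35 without mCherry 3. Dpysl4, a collapsin response mediator, had 56.7, 40.5 and 93.7 CPM in c-fos libraries, against 15.2, 80.7 and 2112 CPM in mCherry libraries. Cdh17, a cadherin of intestine and liver, had 97.3, 28.0 and 81.2 CPM in c-fos libraries and 11.4, 87.5 and 1986 CPM in mCherry libraries. Their negative fold changes of -3.50 for Dpysl4 and -3.34 for Cdh17 became 0.36 and 0.40 without that library.

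Transcripts of the pancreas behaved likewise. Ins2, an insulin gene, had 600, 464 and 612 CPM in c-fos libraries, against 209, 166 and 8900 CPM in mCherry libraries. Its log2 fold change was -2.46 ± 1.29 (SE) with all libraries and 1.56 without mCherry 3. The 10 pancreatic islet and exocrine markers summed to 1613, 1326 and 1778 CPM in c-fos libraries and 501, 424 and 17428 CPM in mCherry libraries. All 8 tested members were thus higher in c-fos once mCherry 3 was left out, with a median of 1.67, against -1.47 with all libraries. What these transcripts come from, and their part in the other values of mCherry 3, was not tested.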

How the data were processed

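RNA was counted in 9 mouse libraries, of which the 3 labelled c-fos and the 3 labelled mCherry are compared here. The authors deposited whole-number counts for each Ensembl gene and library, and the values show no normalization. The tools named per the submitters' processing notes are Trim Galore, STAR, UMI-tools and featureCounts, and the build is mm9. The sources used here give neither versions and settings nor the use of molecular identifiers and strand. Floors therefore cover counting error only, and overlapping genes cannot be told apart, which concerns 45 of the 81 genes given values.

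Symbols were found for 54723 of 54838 identifiers, and those without one held 0.222% of the counts. The 37 mitochondrial genes held 0 counts. The main test was the edgeR 4.0.16 quasi-likelihood test (R 4.3.3) over all 9 libraries in 1 fit, contrast c-fos minus mCherry, two-sided, with TMM scaling and Benjamini-Hochberg adjustment. The function filterByExpr, set to a minimum count of 10 and run on all 9 libraries, left 7959 genes. Besides the genes so marked above, Sema4a, Hipk2, Smad6, Pou1f1, Asb4, Rorb and Isl1 passed it only with the help of overlap libraries. Among the libraries compared, only the c-fos libraries took Hesx1, Rpa2, Ccnt2, Fgf9, Wnt3 and some others past it. High values in every c-fos library were thus partly a condition of testing these genes. The biological coefficient of variation was 0.857. Each standard error was derived from the F statistic. Alternatives were DESeq2 1.42.0, limma-voom (limma 3.58.1), other scalings and filters, the replicate number as a block and leaving out each library. Values without mCherry 3 come from a fit on the same 7959 genes, chosen after seeing the data, as was leaving out mCherry 3 with overlap 1. The procedures were tested on simulated data.

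The text names the 12 genes per direction with the smallest unadjusted p among non-overlapping genes that keep their direction without mCherry 3, leaving out immediate early and predicted genes. It adds genes called by any tool, Fos, Fgf2 and Notch2, and, from 46 family lists and 13 marker lists, some of the most abundant members and those of smallest p. Dnm1, Sdhc, Rora, Rorb, Meis2 and Bcl11b were picked from these after their values were seen, and a few genes are not reported here. Members and lists were chosen with earlier results of these data known, and lists are described by counts and medians without a test. The labels name no animal, so the p-values reflect the spread of these libraries, possibly only technical spread. The annotation at hand is of GRCm38 and served for names and overlaps.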

Additional observations from a re-analysis of the deposited data

How the results depend on the processing

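Against no gene called in edgeR, DESeq2 called 3 genes, limma-voom 4, upper quartile scaling 1 and a stricter filter with a minimum count of 30 called 1. Leaving out mCherry 3 on the same genes called 1, leaving it out together with overlap 1 also 1, and leaving out each library in turn called 0 to 1. Wherever edgeR called 1 gene, it was Hesx1. Without a filter on low counts edgeR called 253 genes, 249 of them lower in c-fos, and 242 of the 253 had more CPM in mCherry 3 than in the other 5 libraries together. Lists with a negative median numbered 14 of 52 on the scale of the 200 most abundant genes, against 35. With the stricter filter 11 of the 24 top genes could be tested. All 11 kept their direction, which a filter could hardly turn, since these genes were chosen on the same counts as not overlapping. Dpysl4 had a log2 fold change of 0.36 without mCherry 3 on the same genes, 0.34 without mCherry 3 and overlap 1, and 0.35 without mCherry 3 after filtering anew. Cdh17 had 0.40, 0.36 and 0.39 in these settings, and Ins2 had 1.56, 1.53 and 1.54 there and 0.62 with limma-voom. Leaving out each library in turn, these ran from -4.05 to 0.35 for Dpysl4, from -3.89 to 0.39 for Cdh17 and from -3.01 to 1.54 for Ins2. The difference in detected genes ran from 879 to 2316 when each library was left out. The causes were not tested.

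The labels do not say whether the replicate numbers pair the libraries. Deviations of same-numbered c-fos and mCherry libraries correlated at -0.0003, 0.0043 and 0.0093, and with the replicate number as a block edgeR called 0 genes. With most genes at low counts, such weak correlations cannot show that the libraries are unpaired. A floor of 3 counts, up to 27.5 CPM in c-fos 1, limits what can be said of genes at 0, and the biological coefficient of variation of 0.857 limits the test.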

Other observations

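Values in the 3 overlap libraries are given for the leading genes as a description. The overlap group shares no library with the comparison but enters the same fit. Hesx1 had 0, 3.84 and 0 CPM in the overlap libraries. Olfm1 had 768, 1191 and 1164 CPM there, Frrs1l 482, 696 and 660 CPM, and Nptxr 724, 868 and 339 CPM. Ptms had 976, 442 and 776 CPM. Wnt3 had 21.9, 0 and 14.1 CPM and Eef1a1 43.9, 0 and 14.1 CPM. Fgf2 had no count in any overlap library, and Notch2 had 11.0, 7.69 and 0 CPM. Ins2 had 12830.2, 473 and 367 CPM, so overlap 1 held the highest value of all 9 libraries.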
